A study of Homo sapiens with 12 samples.

Results

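The enzymes that add chemical groups to histones and DNA, or take them off again, are described here as 77 genes of 15582 that both deposited clone tables list. They were picked by gene symbol alone, as families named KDM, KMT, HDAC, SETD, DNMT, TET, SIRT or KAT followed by a digit, together with EZH1, EZH2, EED, SUZ12, EP300, CREBBP, NSD1, DOT1L, WHSC1 and EHMT2. Of these, 75 encode proteins and 2 are antisense RNAs, KDM4A-AS1 and KMT2E-AS1, which carry an enzyme's name but are separate transcripts. Both are counted wherever the 77 genes or their 71 matched promoters are called enzymes below. DNMT3L, a cofactor without catalytic activity, was listed for clone 2 only, at a mean normalized count of 7.80, and is not among the 77.

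RNA-seq was performed on RCH-ACV, an established human B-cell precursor acute lymphoblastic leukemia line that carries the pre-B-cell receptor. The 12 libraries fell into 4 groups of 3: resistant clone 2 and resistant clone 1, which grew under dasatinib (a maximum of 1 µM), then sensitive clone 2 and sensitive clone 1, which received 0.1% DMSO. All 4 groups derive from the same parental line, and each resistant subline is 1 clone selected over months of rising drug. Repeats within a group are RNA isolations of one subline at separate times.

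The values used are the authors' mean normalized counts, one per gene and clone. Each is an average over 6 libraries, and it pools the 3 resistant with the 3 sensitive ones. A mean of this kind has no spread and no n of its own, so no test was possible and every statement below is a description. The tables hold resistant against sensitive only as the authors' own fold changes and p-values, which were not used, so that contrast is not reported. Normalization was done within each table, so what separates clone 2 from clone 1 and what separates their sets of libraries cannot be told apart. In bulk RNA, fewer cells with a transcript and less of it per cell cannot be told apart either.

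The means over all genes summed to 2.46e+07 in clone 2 and 1.91e+07 in clone 1, with 16846 and 15610 genes listed. Of 13 B-cell precursor markers, 12 reached a mean of 1000 in each clone, among them the surrogate light chain IGLL1 with 12008 in clone 2 and 9233 in clone 1. MME, which encodes CD10, was the exception at 67.0 in clone 2 and 67.7 in clone 1. Of 6 T-cell markers, CD8A was listed in clone 2 only, at 2.34, and CD3D, CD3E, CD3G, CD4 and TRAT1 in neither table. Of 6 myeloid markers, CSF1R had 768 in clone 2 and 615 in clone 1, ELANE was not listed, and the other 4 were at 17.1 or below. HBB and COL1A2 were not listed, while PDGFRB, a receptor of mesenchymal cells, had 5010.2 in clone 2 and 4455 in clone 1.

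Histone marks work as opposed pairs of reactions. Methyltransferases such as the MLL and NSD proteins place methyl groups on lysines of histone H3 or H4, and KDM demethylases take them off. Acetyltransferases open chromatin by acetylating histone tails, which HDACs and the sirtuins reverse. On DNA, DNMT enzymes methylate the cytosine of CpG dinucleotides, and TET dioxygenases oxidize that methyl group on the way to its removal. Several of these genes are mutated or translocated in lymphoid leukemia, KMT2A, CREBBP and WHSC1 among them.

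Most of the enzymes were well expressed. A mean normalized count of at least 1000 was found for 53 of the 77 genes in clone 2 (68.8%), against 32.5% of all genes of that table, and for 46 in clone 1 (59.7%), against 28.4% of all genes. Their median was 1702 in clone 2 and 1343 in clone 1, where the median gene stood at 442 and 406. The top 10% of each table held 22 of them in clone 2 and 21 in clone 1, and together they made up 0.734% of the summed means in clone 2 and 0.755% in clone 1. The same 5 genes lay under 100 in both clones: TET1, SIRT4, KDM4D, HDAC11 and KMT2E-AS1. The highest of the 5, KMT2E-AS1, had 32.2% of all genes below it in clone 2 and 27.9% in clone 1. At least these shares of all genes thus lay under 100.

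**Figure D1:**
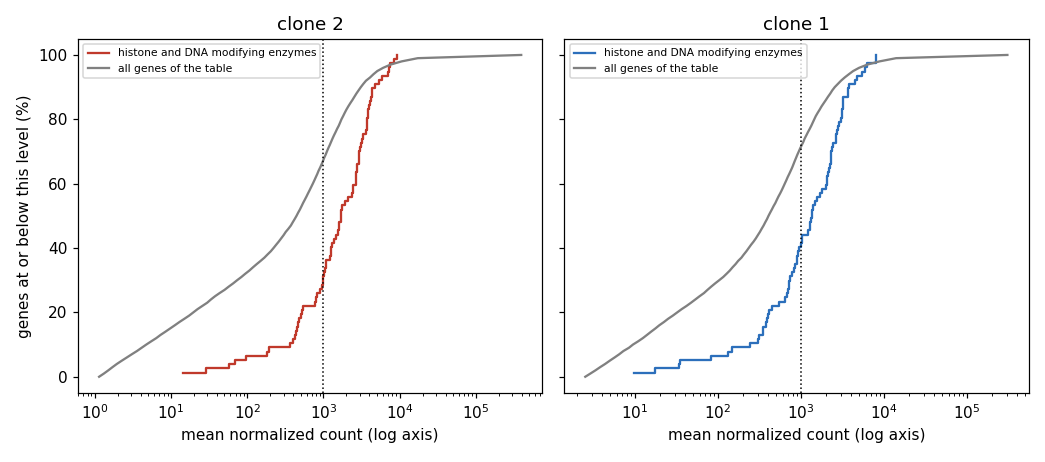
Share of genes at or below each mean normalized count (log axis) in clone 2 (left) and clone 1 (right), for the 77 enzyme genes (coloured steps) and all genes of the table (grey line); the dotted line marks 1000. The steps run to the right of the grey line over most of the range, with medians of 1702 against 442 in clone 2 and 1343 against 406 in clone 1.

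A longer transcript gives more fragments, so levels were also set per length. The coding sequences of the enzymes had a median of 2973 bases, against 1413 for all genes with a coding length, and across the 75 coding members length and mean count had a Spearman rho of 0.55 in clone 2 and 0.57 in clone 1. Per 1000 coding bases (coding kb) the enzymes' median was 520 in clone 2 and 435 in clone 1, against 435 and 339 for all genes. On that scale 48 of 75 lay above the median gene in clone 2 and 49 in clone 1, and 1 of 75, HDAC2, was in the top 10% of each clone. Per 1000 bases of the whole transcript (transcript kb), a scale added after the values were seen, the median was 327 in clone 2 and 268 in clone 1, against 196 and 152 for all genes. Per transcript kb 56 of 75 lay above the median gene in clone 2 and 58 in clone 1, and 4 were in the top 10% of each clone.

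Values without another scale are mean normalized counts. Levels of different genes are compared below per coding kb, and the transcript scale is given where it changes which gene leads a family. Below first place it changed the order in more families, and in 6 of 15 the whole order was the same on both length scales. The scales differ by the untranslated ends, and which ends these cells use was not measured.

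The 5 promoters printed here belong to the genes at the extremes of the DNA-modifying families and to the enzyme with the most CpG dinucleotides at its start. DNMT1 and TET3 were the highest of their families, DNMT3B and TET1 the lowest, and WHSC1 carried the CpG maximum. Each run covers 250 bases before and 50 after the most upstream start in the RefSeq table, 5′ to 3′ on the gene's strand in GRCh38.p14, with CpG dinucleotides in capitals. Coordinates are chr19:10194904-10195203 (minus strand) for DNMT1, chr20:32779602-32779901 (plus) for DNMT3B, chr10:68560087-68560386 (plus) for TET1, chr2:73984660-73984959 (plus) for TET3 and chr4:1871143-1871442 (plus) for WHSC1, listed there as NSD2.
DNMT1: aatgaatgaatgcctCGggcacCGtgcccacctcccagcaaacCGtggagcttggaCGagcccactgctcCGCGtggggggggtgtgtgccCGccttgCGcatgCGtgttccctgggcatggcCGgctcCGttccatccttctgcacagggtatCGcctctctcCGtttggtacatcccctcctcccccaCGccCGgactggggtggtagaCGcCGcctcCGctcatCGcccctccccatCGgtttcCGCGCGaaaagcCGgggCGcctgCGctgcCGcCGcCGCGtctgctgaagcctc
DNMT3B: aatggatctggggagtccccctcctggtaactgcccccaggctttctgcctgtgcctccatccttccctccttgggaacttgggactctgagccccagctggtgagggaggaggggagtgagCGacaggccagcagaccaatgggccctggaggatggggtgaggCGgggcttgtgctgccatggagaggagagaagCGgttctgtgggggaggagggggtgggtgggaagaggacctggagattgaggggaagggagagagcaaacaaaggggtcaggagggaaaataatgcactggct
TET1: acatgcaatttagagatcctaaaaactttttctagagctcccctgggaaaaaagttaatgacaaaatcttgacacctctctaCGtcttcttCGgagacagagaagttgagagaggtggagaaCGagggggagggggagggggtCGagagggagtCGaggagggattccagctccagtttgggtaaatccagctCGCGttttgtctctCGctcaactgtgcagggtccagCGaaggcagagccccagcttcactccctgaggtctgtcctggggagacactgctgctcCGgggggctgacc
TET3: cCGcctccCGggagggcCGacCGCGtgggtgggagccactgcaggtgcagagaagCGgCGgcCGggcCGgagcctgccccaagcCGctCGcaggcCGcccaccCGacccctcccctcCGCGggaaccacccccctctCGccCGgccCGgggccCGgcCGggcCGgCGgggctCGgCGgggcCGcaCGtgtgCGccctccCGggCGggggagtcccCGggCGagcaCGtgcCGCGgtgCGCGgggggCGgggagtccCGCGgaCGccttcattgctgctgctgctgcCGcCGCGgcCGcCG
WHSC1: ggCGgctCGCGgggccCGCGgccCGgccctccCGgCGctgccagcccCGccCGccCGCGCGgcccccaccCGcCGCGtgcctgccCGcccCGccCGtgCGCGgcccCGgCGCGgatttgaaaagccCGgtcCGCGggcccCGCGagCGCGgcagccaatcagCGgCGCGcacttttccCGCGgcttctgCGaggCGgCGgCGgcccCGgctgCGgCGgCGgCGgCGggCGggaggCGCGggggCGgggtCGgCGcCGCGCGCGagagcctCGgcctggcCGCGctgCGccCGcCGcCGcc

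The DNMT1 stretch holds 30 CpG dinucleotides and the DNMT3B stretch 3, the fewest of any enzyme window matched. For each of these genes only 1 start was listed, and which starts these cells use was not measured. TET3 has 45 where TET1 has 10 and TET2 13, and WHSC1 has 63. TET1 has 3 listed starts, TET3 and TET2 have 2 each and WHSC1 has 1, and only the most upstream was used. A promoter could be matched for 71 of the 77 genes and for 12051 genes of both tables. The median was 30 CpG dinucleotides for the enzymes against 25 for all genes, and 83.1% of the enzymes (59 of 71) had at least 20, against 66.5% of all. Fewer than 10 were found for DNMT3B, NSD1 (7) and HDAC8 (9), 4.23% of the enzymes, against 16.1% of all genes. Among these 3, DNMT3B had a mean normalized count of 445 in clone 2 and 376 in clone 1, and NSD1 had 3726 in clone 2 and 3003 in clone 1. A CpG-poor window at the most upstream listed start thus occurred at high and at moderate means. NSD1 has 5 listed starts, of which only the most upstream was examined.

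**Figure D2:**
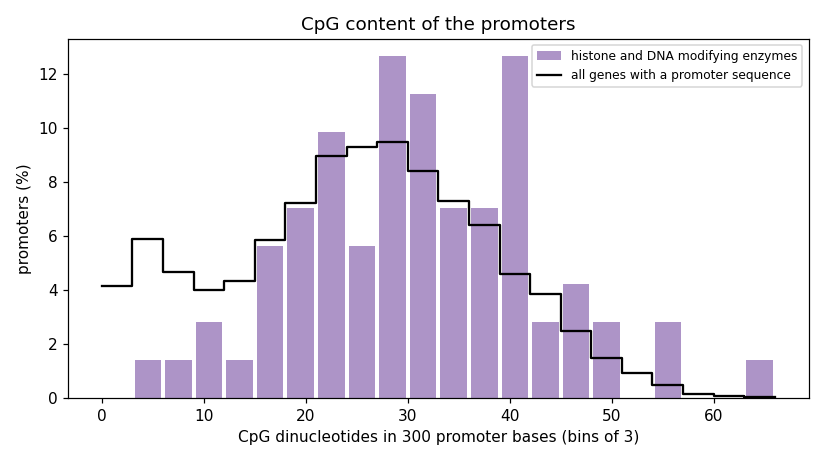
CpG dinucleotides in 300 promoter bases (x axis, bins of 3) against the percentage of promoters (y axis), for 71 enzyme genes (bars) and 12051 genes of both tables (line). The bars are sparse below 10, where 4.23% of the enzymes and 16.1% of all genes fall, and 1 promoter, that of WHSC1, stands at 63.

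Short motifs were searched on both strands of the same windows. The TATA box TATAAA was in 0 of 71 enzyme promoters, against 6.49% of all. The GC box GGGCGG was in 69.0% against 66.8%, and the CCAAT box in 31.0% against 36.3%. The E-boxes CACCTG and CAGCTG were in 15.5% and 14.1% of enzyme promoters, against 18.9% and 17.1% of all genes. The ETS motif CCGGAAG was in 16.9% against 17.8%, the NRF1 motif in 4.23% against 2.27%, and the YY1 motif in 4.23% against 1.78%. The E2F letters TTTCCCGC and TTTGGCGC were in 5.63% and 1.41% of enzyme promoters, against 2.49% and 1.07% of all. These are letter matches and not evidence that a factor was bound.

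Among the enzymes of DNA methylation, DNMT1, which copies methylation to the new strand after replication, had a mean of 9185 in clone 2 and 7932 in clone 1. DNMT3A, a de novo methyltransferase, had 3092 in clone 2 and 2309.9 in clone 1, and the related DNMT3B had 445 in clone 2 and 376 in clone 1. Per coding kb the 3 stood at 1895, 1130 and 174 in clone 2 and at 1636, 844 and 147 in clone 1, and the order was the same per transcript kb. DNMT3A exceeded DNMT3B per coding kb 6.50-fold in clone 2 and 5.75-fold in clone 1, and the proteins encoded are 55.3% identical over the aligned residues. DNMT3A and DNMT3B both had fewer CpG dinucleotides in their windows (18 and 3) than DNMT1. For DNMT3A 6 starts are listed, and its window covers only the most upstream.

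Per coding kb, the 3 TET dioxygenases covered the widest range of any family. TET3 had a mean of 2703 in clone 2 and 2258 in clone 1, and TET2, a frequent target of mutation in myeloid disease, had 819 in clone 2 and 731 in clone 1. TET1, best known from embryonic stem cells and germ cells, had 14.4 in clone 2 and 9.71 in clone 1, the lowest of the 75 coding members per coding kb. Per coding kb TET3 exceeded TET1 224-fold in clone 2 and 277-fold in clone 1, and TET2 3.68-fold in clone 2 and 3.45-fold in clone 1. TET1 thus supplied 0.35% of the family's summed level per coding kb in clone 2 and 0.28% in clone 1.

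Polycomb repressive complex 2 places the repressive methyl marks on lysine 27 of histone H3. Its main catalytic subunit EZH2 had a mean of 3607 in clone 2 and 2865 in clone 1, and the alternative subunit EZH1 had 1090.2 in clone 2 and 886 in clone 1. Per coding kb EZH2 exceeded EZH1 3.29-fold in clone 2 and 3.21-fold in clone 1, and per transcript kb 5.80-fold in clone 2 and 5.66-fold in clone 1, with 68.2% identity between their proteins. The scaffold SUZ12 had 2960.4 in clone 2 and 2284 in clone 1, and EED, which reads the mark, had 1265 in clone 2 and 943 in clone 1. EZH2, SUZ12, EED and EZH1 followed in this order in both clones, by mean count, per coding kb and per transcript kb. Of the SUZ12 transcript, 9.68% of the 50-base words also occur in the pseudogene SUZ12P1, and reads from that stretch may have been counted to either.

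Methylation of lysine 36 of the same histone was represented by WHSC1, NSD1 and SETD2. WHSC1, the dimethylating enzyme also called NSD2, had 7471 in clone 2 and 6189 in clone 1. NSD1, its relative, had 3726 in clone 2 and 3003 in clone 1, and SETD2, which adds the third methyl group, had 2659 in clone 2 and 2073 in clone 1. Per coding kb WHSC1 exceeded NSD1 3.96-fold in clone 2 and 4.07-fold in clone 1 and SETD2 5.28-fold in clone 2 and 5.61-fold in clone 1. WHSC1 was first on both length scales, while NSD1 and SETD2 changed places per transcript kb (289 and 327 in clone 2, 233 and 255 in clone 1).

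The methyltransferases of lysine 4, a mark of promoters and enhancers, included the longest genes of the group. KMT2D, which acts at enhancers, had 8305 in clone 2 and 7995 in clone 1, over a coding sequence of 16611 bases. KMT2A, or MLL, the gene broken in infant leukemia, had 3972 in clone 2 and 3667 in clone 1. KMT2C, the partner of KMT2D in enhancer marking, had 2954 in clone 2 and 2629 in clone 1.

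KMT2E, a family member with little activity of its own, had 3338 in clone 2 and 2673 in clone 1, and KMT2B had 2962 in clone 2 and 2373 in clone 1. SETD1B and SETD1A supply most promoter trimethylation. SETD1B had 1896 in clone 2 and 1494 in clone 1, and SETD1A had 1586 in clone 2 and 1343 in clone 1. SETD7, a monomethylating enzyme that also acts on other proteins, had 2381 in clone 2 and 1687 in clone 1. KMT2A and KMT2C share sequence with other annotated transcripts, 26.1% and 6.98% of their 50-base words.

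Which of these genes came first depended on the length used. Per coding kb SETD7 led with 2169 in clone 2 and 1536 in clone 1. KMT2E was second in clone 2 with 599 per coding kb, and in clone 1 KMT2D came second with 481, just ahead of KMT2E with 479. SETD7 has 1098 coding bases in a transcript of 7365, and per transcript kb it had 323 in clone 2 and 229 in clone 1. On that scale KMT2E, KMT2D and KMT2B were above SETD7 in both clones, and KMT2A and SETD1B also in clone 1. KMT2C was the lowest of the 8 on either length scale, with 201 in clone 2 and 178 in clone 1 per coding kb.

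Other lysines had one enzyme or a small set each. EHMT2, or G9a, which methylates lysine 9 of histone H3, had 4205 in clone 2 and 3169 in clone 1, and DOT1L, the sole enzyme of lysine 79, had 3868 in clone 2 and 3183 in clone 1. On lysine 20 of histone H4, the monomethylating KMT5A had 1714 in clone 2 and 1288 in clone 1, with 22.2% of its words shared, mostly with the pseudogene SETD8P1. KMT5B and KMT5C add further methyl groups there. KMT5B had 1250.3 in clone 2 and 911 in clone 1, and KMT5C had 418 in clone 2 and 390.2 in clone 1.

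Per coding kb KMT5A was first of these 5 with 1623 in clone 2 and 1219 in clone 1, and EHMT2 followed with 1158 in clone 2 and 873 in clone 1. Per transcript kb EHMT2 led with 1061 in clone 2 and 799 in clone 1, and KMT5A had 546 in clone 2 and 410.1 in clone 1.

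The SETD genes outside these sets encode proteins that mostly act on other targets. SETD5 had 4343 in clone 2 and 2833 in clone 1, and SETD3, which methylates actin, had 1391 in clone 2 and 1025 in clone 1. SETD6, an enzyme of the NF-kB subunit RELA, had 1081 in clone 2 and 682 in clone 1. SETD4 had 544 in clone 2 and 399 in clone 1, and SETD9 had 192 in clone 2 and 149 in clone 1. SETD5 led and SETD9 came last per coding kb and per transcript kb in both clones.

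Among the acetyltransferases, the coactivators CREBBP and EP300, which acetylate lysine 27 of histone H3 at enhancers, were almost level. CREBBP had 3809.8 in clone 2 and 3190.1 in clone 1. EP300 had 3704 in clone 2 and 3108 in clone 1, and the ratio of EP300 to CREBBP per coding kb was 0.98 in clone 2 and 0.99 in clone 1. Per transcript kb the ratio was 1.10 in both clones, and their proteins are 67.5% identical over aligned residues.

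The MYST enzymes KAT6A and KAT6B differed from each other. KAT6A, or MOZ, a translocation partner in myeloid leukemia, had 5398 in clone 2 and 4455 in clone 1, and KAT6B had 1702 in clone 2 and 1348 in clone 1. Per coding kb KAT6A exceeded KAT6B 3.28-fold in clone 2 and 3.42-fold in clone 1. The gap was 2.88-fold in clone 2 and 3.00-fold in clone 1 per transcript kb.

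KAT7, KAT5 and KAT8 act largely on histones H3 and H4. KAT7, or HBO1, had 1756 in clone 2 and 1322 in clone 1. KAT5, or TIP60, had 1569 in clone 2 and 1201 in clone 1, with 40.0% of its words antisense to RNASEH2C. KAT8, the enzyme of lysine 16 of histone H4, had 1029.7 in clone 2 and 837 in clone 1. Of the acetyltransferases, KAT7 moved most with the length used, at 958 in clone 2 and 721 in clone 1 per coding kb, against 182 in clone 2 and 137 in clone 1 per transcript kb.

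KAT2A (GCN5), the acetyltransferase of the SAGA coactivator, had 2699 in clone 2 and 2191 in clone 1, and its paralog KAT2B (PCAF) had 364 in clone 2 and 246 in clone 1. Per coding kb KAT2A exceeded KAT2B 7.38-fold in clone 2 and 8.84-fold in clone 1, the widest gap in this family, and their proteins are 71.9% identical. KAT2A was first and KAT2B last on either length scale in both clones.

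**Figure D3:**
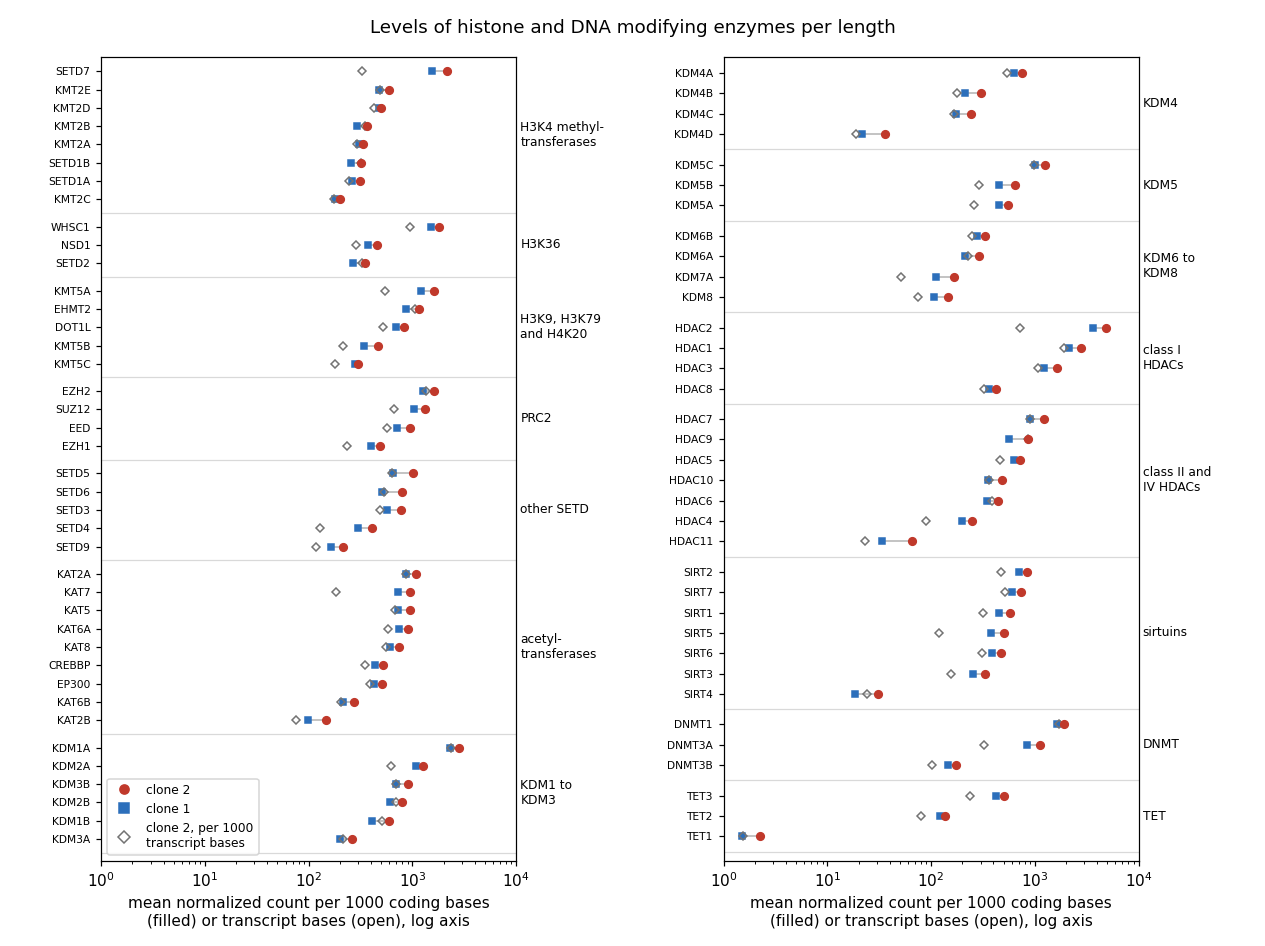
Mean normalized count per 1000 coding bases (log axis) of the 75 coding members by family, in clone 2 (red circles) and clone 1 (blue squares), with the clone 2 value per 1000 transcript bases as open diamonds. Values are drawn as deposited, where the median gene was 1.29-fold higher in clone 2; TET1 stands alone at the left at 2.24 and 1.51, and the HDAC2 and SETD7 diamonds lie far from their circles.

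The class I deacetylases included the highest level per coding kb of the group, that of HDAC2. Per transcript kb KDM1A was the highest of the group. It had 2372 in clone 2 and 1946 in clone 1 on that scale, against 720 and 545 for HDAC2. HDAC2 had 7112 in clone 2 and 5385 in clone 1, and HDAC1 had 4044 in clone 2 and 3103 in clone 1. HDAC3, the enzyme of the NCOR complexes, had 2118 in clone 2 and 1559 in clone 1. HDAC8 had 524 in clone 2 and 448 in clone 1, with 72.5% of its words in another annotated transcript.

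HDAC2 exceeded HDAC1 per coding kb 1.74-fold in clone 2 and 1.71-fold in clone 1, with levels of 4858 in clone 2 and 3678 in clone 1 for HDAC2. This order depended on the length used. The reference transcript of HDAC2 has 9874 bases and that of HDAC1 has 2124, and per transcript kb the ratio of HDAC2 to HDAC1 was 0.378 in clone 2 and 0.373 in clone 1. Per transcript kb HDAC1 was first at 1904 in clone 2 and 1461 in clone 1, ahead of HDAC3 and HDAC2. The proteins of HDAC2 and HDAC1 are 86.5% identical over aligned residues, the closest of the 7 pairs compared.

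Of the class II and IV deacetylases, HDAC7, which is prominent in lymphocyte development, had 3673 in clone 2 and 2696 in clone 1, and HDAC9 had 2749.9 in clone 2 and 1817 in clone 1. HDAC5 had 2450.0 in clone 2 and 2146 in clone 1, and HDAC4 had 802 in clone 2 and 651 in clone 1. All 4 belong to class IIa, whose members move between nucleus and cytoplasm.

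HDAC6, the cytoplasmic deacetylase of tubulin, had 1608 in clone 2 and 1273 in clone 1. HDAC10, a polyamine deacetylase, had 964 in clone 2 and 713 in clone 1, and 77.6% of its words occur in a transcript of its neighbour MAPK12. HDAC11, the only class IV enzyme, had 68.6 in clone 2 and 35.4 in clone 1. HDAC7 was first and HDAC11 last on every scale, and per coding kb they differed 18.7-fold in clone 2 and 26.7-fold in clone 1.

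Sirtuins are deacylases that need NAD+. SIRT1, the best known nuclear member, had 1288 in clone 2 and 1021 in clone 1, and the mainly cytoplasmic SIRT2 had 972 in clone 2 and 825 in clone 1. Both SIRT6 and SIRT7 are nuclear as well. SIRT6 had 505 in clone 2 and 410.4 in clone 1, and SIRT7 had 893 in clone 2 and 727 in clone 1. SIRT7 exceeded SIRT6 per coding kb 1.57-fold in clone 2 and 1.57-fold in clone 1.

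The other 3 sirtuins are mitochondrial. SIRT5 had 469 in clone 2 and 352 in clone 1, and SIRT3 had 397 in clone 2 and 302 in clone 1. SIRT4 had 29.1 in clone 2 and 17.4 in clone 1, and it was the lowest sirtuin on every scale. Per coding kb SIRT2 led with 833 in clone 2 and 707 in clone 1, and per transcript kb SIRT7 led with 512 in clone 2 and 417 in clone 1.

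Among the lysine demethylases, KDM1A had the highest level per coding kb, 2815 in clone 2 and 2309 in clone 1. KDM1A, or LSD1, a flavin enzyme that removes methyl groups from lysine 4, had 7195 in clone 2 and 5902 in clone 1, and its relative KDM1B had 1454 in clone 2 and 1006 in clone 1. KDM1A exceeded KDM1B per coding kb 4.78-fold in clone 2 and 5.67-fold in clone 1. KDM1A was the first of its list on all 3 scales.

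KDM2A and KDM2B bind unmethylated CpG islands and act on lysine 36. KDM2A had 4381 in clone 2 and 3756 in clone 1, and KDM2B had 3191 in clone 2 and 2441 in clone 1. Of the lysine 9 demethylases, KDM3B had 4745 in clone 2 and 3669 in clone 1, and KDM3A had 1047 in clone 2 and 789 in clone 1. KDM3A was the lowest of these 6 on all 3 scales.

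The KDM4 enzymes demethylate lysines 9 and 36. KDM4A had 2420.5 in clone 2 and 2020.3 in clone 1, with 44.8% of its words in a second annotated transcript of the same strand and 8.68% antisense to KDM4A-AS1. KDM4B had 999.9 in clone 2 and 693 in clone 1, and KDM4C had 769 in clone 2 and 545 in clone 1. KDM4D, which is best known from testis, had 56.8 in clone 2 and 33.6 in clone 1. The order KDM4A, KDM4B, KDM4C, KDM4D was found in both clones on all 3 scales, and KDM4A exceeded KDM4D per coding kb 21.0-fold in clone 2 and 29.5-fold in clone 1.

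The KDM5 enzymes remove trimethylation of lysine 4. KDM5C had 5895 in clone 2 and 4744 in clone 1, KDM5B had 3019 in clone 2 and 2074 in clone 1, and KDM5A had 2777 in clone 2 and 2283 in clone 1. KDM5C exceeded KDM5A per coding kb 2.30-fold in clone 2 and 2.25-fold in clone 1. KDM5B and KDM5A changed places between clones, with a ratio of KDM5B to KDM5A per coding kb of 1.19 in clone 2 and 0.99 in clone 1.

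The lysine 27 demethylases opposing Polycomb were both present. KDM6B had 1682 in clone 2 and 1393 in clone 1, and KDM6A, or UTX, had 1222 in clone 2 and 892 in clone 1. KDM7A, which acts on lysines 9 and 27, had 472 in clone 2 and 315 in clone 1, and KDM8 had 184 in clone 2 and 134 in clone 1. KDM6B led on all 3 scales, ahead of KDM6A, whereas KDM7A and KDM8 changed places per transcript kb.

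The family lists were then joined whole into 2 sets. The first, of 37 genes, held the methyltransferase, Polycomb, other SETD, acetyltransferase and DNMT lists. It therefore includes EED and SUZ12, and SETD genes that act mostly on other targets. Its median was 599 per coding kb in clone 2 and 481 in clone 1. The 38 demethylases, deacetylases and TET genes had 503 per coding kb in clone 2 and 396 in clone 1. Relative to the median gene, the log2 ratio of clone 2 to clone 1 had a median of -0.04 in the first set and 0.02 in the second. Of the 15 family lists, 9 had the same order in both clones per coding kb.

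The antisense RNAs were both listed. KDM4A-AS1 had 429.5 in clone 2 and 349 in clone 1, and KMT2E-AS1 had 95.9 in clone 2 and 82.4 in clone 1. Of their 50-base words, 8.67% and 13.7% lie antisense within the transcripts of KDM4A and KMT2E. The strand setting of the count is not given in the sources used here, so whether reads of these stretches were kept apart from those of the partner gene is not known.

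The clones were then compared gene by gene, as the log2 ratio of clone 2 to clone 1. The median gene of 14177 with an average mean of at least 10 was 1.29-fold higher in clone 2 as deposited (0.37 on the log2 scale), and all ratios below are given relative to it. The 77 enzymes had a median of -0.03, with 35 above 0 and 42 below. The interval between their 25th and 75th percentiles ran from -0.09 to 0.07, against -0.10 to 0.10 for all genes.

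A line of 1.5-fold was passed upward by 1 of the 77, HDAC11, against 3.29% of all genes, and downward by 0, against 2.45% of all genes. HDAC11 had 68.6 in clone 2 and 35.4 in clone 1, a ratio of 0.59 on the log2 scale, just past the line. Genes at such levels varied widely: between averages of 30 and 100, 8.88% of all genes were higher in clone 2 and 5.67% lower past the same line.

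The next highest ratios were those of KDM4D (0.38) and SIRT4 (0.37), which are also low in mean count. SETD6 followed with 0.29, SETD5 with 0.25 and HDAC9 with 0.23. SETD5, with 4343 in clone 2 and 2833 in clone 1, and SETD6, with 1081 in clone 2 and 682 in clone 1, lay above the 95th percentile of genes at their level, 0.19 for averages above 3000 and 0.27 between 300 and 1000. HDAC9 did so too, against 0.21 between 1000 and 3000.

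At the other end stood KMT2D (-0.32), KMT5C (-0.27), KMT2A (-0.26), TET2 (-0.21) and KMT2C (-0.20). KMT2D and KMT2A lay under the 5th percentile of genes with averages above 3000, which was -0.20. With 16611, 11907 and 14733 coding bases, KMT2D, KMT2A and KMT2C are the longest coding members. Whether length has a part in these ratios was not tested, and no spread between libraries is at hand to set them against.

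**Figure D4:**
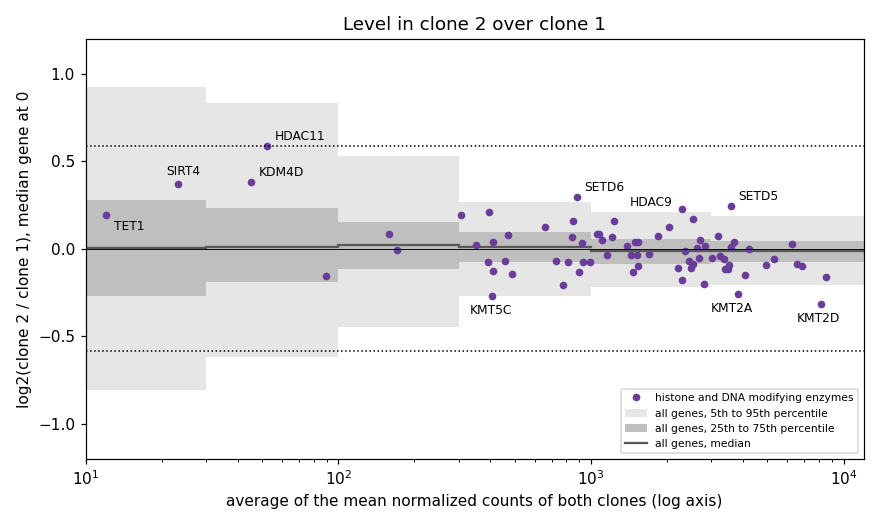
Log2 ratio of clone 2 to clone 1, with the median gene at 0 (y axis), against the average mean normalized count of both clones (x axis, log) for the 77 enzymes (points), over the bands that hold the middle and the 5th to 95th percentile of all genes; dotted lines mark 1.5-fold. The points narrow around 0 toward the right as the bands do, HDAC11 touches the upper line, and KMT2D is lowest at -0.32.

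Within 0.25 of the median gene lay 70 of the 77 enzymes (90.9%), against 80.3% of all genes. Among genes averaging at least 1000, the count was 47 of 49 enzymes (95.9%), against 93.5% of 4994 genes. The order of the 77 by mean count had a Spearman rho of 0.99 between clones, as it had for all genes. The centred medians of the DNMT and TET families were -0.13 and -0.11, and that of the KDM4 family was 0.14.

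Partner proteins of these enzymes were counted from lists at the same line of 1000, which 32.5% of all genes reached in clone 2 and 28.4% in clone 1. Of 16 Polycomb partners, 8 reached a mean of 1000 in clone 2 and 7 in clone 1, with the histone chaperone RBBP4 at 10668 in clone 2 and 8467 in clone 1. Of 10 COMPASS partners of the lysine 4 enzymes, 9 reached it in each clone, and of 15 deacetylase corepressors 13 in clone 2 and 12 in clone 1. CHD4, the remodeller of the NuRD corepressor, had 18952 in clone 2 and 14305 in clone 1.

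Of 17 acetyltransferase partners 10 reached 1000 in clone 2 and 8 in clone 1. Of 11 genes linked to DNA methylation, 10 did so in each clone, and UHRF1, which guides DNMT1 to replicated DNA, had 15895 in clone 2 and 15426 in clone 1. Of 18 further methyltransferases with other symbols, 15 did so in clone 2 and 10 in clone 1. In these 6 lists 0 genes passed 1.5-fold between the clones relative to the median gene. Of all genes 3.29% passed it upward and 2.45% downward, but between averages of 1000 and 3000 the shares were 0.486% and 0.429%, so a count near 0 is the background at such levels.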

How the data were processed

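RNA-seq of 12 RCH-ACV libraries in 4 groups of 3 was analysed. RNA had been isolated by column kit and stranded mRNA libraries prepared. Without assigning roles, the submitters' notes on processing list hg19, DESeq2, FastQC 0.10.1, Picard 1.107, bedtools 2.19.0, SAMtools and the BWA releases 0.7.7-r441 and 0.6.2-r126. BWA does not split reads over introns. Which annotation and counting program were used, and with what strand option, is not given in the sources used here.

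Each deposited table holds a signal, which the authors made by averaging normalized counts across a clone's 6 libraries, and their own comparison of resistant with sensitive cells (fold change, its error, statistic, p-values), which was not used. Totals per library were not used here, so depth is unknown and no interval is given. The 2 rows that shared a symbol were left out of each table.

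Coding and transcript lengths, shared 50-base words and protein identities came from GENCODE 29 (GRCh38), for 13779 genes. These lengths are not of the authors' build. Promoters came from RefSeq. For the ratio of clones, means were divided by the median gene over genes averaging at least 10. A gene was counted as well expressed from a mean of 1000 and as different from 1.5-fold. Python 3.11.15, pandas 2.3.3, scipy 1.17.1 and Biopython 1.88 were used.

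Every member is named, with the highest and lowest of each family described singly. The members, lists and thresholds were chosen with earlier results of these data known, and the printed promoters and motifs after the levels were seen. Alternatives were other thresholds, scalings, minimums and lengths.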

Additional observations from a re-analysis of the deposited data

How the results depend on the processing

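With a line of 2000 in place of 1000, 35 enzymes reached it in clone 2 instead of 53, and 32 in clone 1 instead of 46, against 16.9% and 14.0% of all genes. Without division by the median gene, 6 enzymes were at least 1.5-fold higher in clone 2 instead of 1, against 12.4% of all genes, and with a line of 2-fold 0 were, against 1.18% of all genes. Scaling by the sum of the means differed from the median gene by -0.01 on the log2 scale and gave 1 higher and 0 lower, as did no minimum and a minimum of 50. Per transcript kb, added after seeing the data, 9 of 15 families had the same order in both clones, the same number as per coding kb. They were not all the same families. The acetyltransferases and the class II and IV deacetylases joined, while the list led by KDM1A and that of EHMT2, DOT1L and the KMT5 genes dropped out. Between these length scales the gene in first place was the same in 11 families and the whole order in 6. No paired analysis was possible because the values are means over 6 libraries with none per library, and no library could be left out for the same reason. Mean counts under 100, as for TET1, SIRT4, KDM4D and HDAC11, limit their ratios most.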
